A study of Mus musculus with 5 samples.

Results

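Protein-coding mouse genes for splicing factors and heterogeneous nuclear ribonucleoproteins (hnRNPs) were examined for CREB and H3K4 peaks in the fetal testis. Members were chosen by symbol alone from the RefSeq annotation of GRCm38.p6, whose coordinates are those of mm10, and the rule uses no measured value, although these families were picked with earlier results of the same data known. The rule took symbols of 6 families (Srsf, Sf3a or Sf3b, Snrp, Hnrnp, Prpf and Lsm, each with its number or letter) and found 79 of 21887 protein-coding genes. They comprised 11 Srsf, 9 Sf3, 12 Snrp, 21 Hnrnp, 13 Prpf and 13 Lsm genes. A gene counted as having a peak when any peak of a list overlapped the 1000 bp on either side of a gene end.

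The data are CUT&RUN peak lists, a method that frees antibody-targeted DNA with a tethered nuclease, from dissociated cells of male mouse gonads. An antibody against CREB, a transcription factor activated by cAMP signalling, was used on fetal testis of 3 stages (embryonic days E13.5, then E16.5, then E18.5), and an antibody labelled H3K4, with no methylation state given, at E18.5. Each combination had 1 library with 100000 cells, and values carry no replicate check; an IgG library was not analysed here. The lists held 862, 3528 and 2957 CREB peaks and 21211 H3K4 peaks, of nearly constant width (150, 630, 160 and 210 bp), without scores, and their read depth is unknown. The labels name neither strain nor treatment. A peak list carries no RNA level, so the tissue label could not be checked against marker genes, and which cells of the mixed gonad gave a peak cannot be told apart.

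Introns are removed by the spliceosome, which is built from small nuclear ribonucleoproteins (snRNPs), each an RNA held by a ring of Sm or Lsm proteins together with proteins of its own. SR proteins, encoded by the Srsf genes, bind exons and recruit the snRNPs, while hnRNPs coat the transcript and often act against SR proteins at the same splice sites. CREB binds the cAMP response element (CRE), a palindrome whose shorter form, the CRE half-site, is also bound.

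The start regions of 9 members, taken from RefSeq on GRCm38.p6, show what lay under or beside the peaks described below. Each runs from 150 bases before the annotated start to 50 after it, in the direction of transcription, with the half-site TGACG (or CGTCA, its other strand) in capitals. The first 5 belong to members with a CREB peak at all 3 stages, Snrpa and Snrpg hold the full CRE TGACGTCA, and Srsf3 holds 3 half-sites. Sf3b1 has an H3K4 peak, no CREB peak and no half-site, and is shown for contrast. The set is not representative: every printed region with CREB holds a half-site, whereas 25 of 35 members with a CREB peak at the start do. Hnrnpa1, with CREB at all 3 stages, has no half-site in its promoter and is not printed.
Srsf5 (chr12:80945349-80945548, plus strand): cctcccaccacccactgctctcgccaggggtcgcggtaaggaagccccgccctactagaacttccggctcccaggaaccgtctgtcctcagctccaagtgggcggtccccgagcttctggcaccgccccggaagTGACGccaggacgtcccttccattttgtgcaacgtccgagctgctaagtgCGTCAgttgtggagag
Srsf11 (chr3:158036557-158036756, minus strand): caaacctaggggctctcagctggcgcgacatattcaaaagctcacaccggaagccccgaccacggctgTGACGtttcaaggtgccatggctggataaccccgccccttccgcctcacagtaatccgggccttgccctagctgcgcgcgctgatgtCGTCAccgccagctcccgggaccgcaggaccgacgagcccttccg
Prpf4 (chr4:62408633-62408832, plus strand): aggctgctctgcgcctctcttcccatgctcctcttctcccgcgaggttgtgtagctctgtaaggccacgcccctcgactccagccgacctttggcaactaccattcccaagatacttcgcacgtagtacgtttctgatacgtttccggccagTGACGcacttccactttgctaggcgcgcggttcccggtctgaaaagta
Prpf6 (chr2:181601169-181601368, plus strand): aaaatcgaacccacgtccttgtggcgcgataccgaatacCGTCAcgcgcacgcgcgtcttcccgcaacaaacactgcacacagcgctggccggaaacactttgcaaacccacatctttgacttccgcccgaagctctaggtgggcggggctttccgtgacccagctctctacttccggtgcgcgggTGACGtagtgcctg
Prpf38a (chr4:108579287-108579486, minus strand): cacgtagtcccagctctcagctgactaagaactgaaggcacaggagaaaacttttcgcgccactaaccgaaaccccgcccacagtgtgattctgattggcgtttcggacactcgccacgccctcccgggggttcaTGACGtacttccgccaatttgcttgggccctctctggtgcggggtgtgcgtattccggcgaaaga
Snrpa (chr7:27196222-27196421, minus strand): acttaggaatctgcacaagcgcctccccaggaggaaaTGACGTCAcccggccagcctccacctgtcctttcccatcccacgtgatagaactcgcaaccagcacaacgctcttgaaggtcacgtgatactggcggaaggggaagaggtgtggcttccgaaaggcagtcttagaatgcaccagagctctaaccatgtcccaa
Snrpg (chr6:86371390-86371589, plus strand): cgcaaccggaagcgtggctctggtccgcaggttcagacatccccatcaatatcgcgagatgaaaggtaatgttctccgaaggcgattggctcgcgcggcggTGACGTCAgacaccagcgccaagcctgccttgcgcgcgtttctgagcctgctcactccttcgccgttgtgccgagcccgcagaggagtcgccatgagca
Srsf3 (chr17:29032510-29032709, plus strand): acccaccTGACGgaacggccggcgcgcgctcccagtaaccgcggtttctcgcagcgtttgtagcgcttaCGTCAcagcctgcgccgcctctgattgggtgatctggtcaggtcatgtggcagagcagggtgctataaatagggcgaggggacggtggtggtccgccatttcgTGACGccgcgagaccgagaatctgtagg
Sf3b1 (chr1:55027429-55027628, minus strand): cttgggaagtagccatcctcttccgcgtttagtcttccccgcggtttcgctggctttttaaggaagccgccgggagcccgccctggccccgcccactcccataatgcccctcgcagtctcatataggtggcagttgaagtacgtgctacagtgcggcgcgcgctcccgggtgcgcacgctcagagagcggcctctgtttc

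CREB peaks lay at the ends of these genes more often than at those of protein-coding genes in general, at each stage. At E13.5, 9 of 79 members had a CREB peak at an end (11.4%, 95% Wilson interval 6.11 to 20.3), against 3.94% of all protein-coding genes. The E16.5 list marked 36 members (45.6%, 35 to 56.5) and 14.9% of all genes. The E18.5 list marked 30 members (38%, 28.1 to 49) and 12.9% of all genes. The member share was thus 2.89, 3.05 and 2.95 times the general one at the 3 stages. With each list limited to as many first peaks as the E13.5 list holds, the ratio was 2.89, 4.07 and 1.77, so its size at the later stages depended on how much of the list was read. H3K4 peaks lay at 71 members (89.9%, 81.3 to 94.8) and at 52.7% of all genes. All intervals cover counting error only, and they treat genes as separate draws, which neighbouring genes with a shared peak are not.

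**Figure D1:**
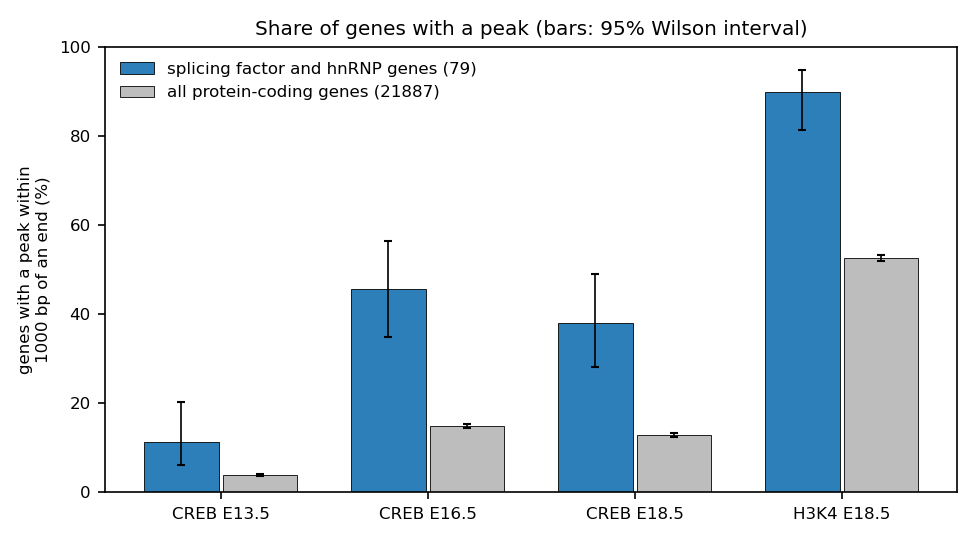
Share of genes (percent, vertical axis) with a peak within 1000 bp of a gene end in each library, for the 79 splicing factor and hnRNP genes and for all 21887 protein-coding genes; lines are 95% Wilson intervals of the counts. The member shares were 11.4%, 45.6% and 38% for CREB and 89.9% for H3K4, above the 3.94%, 14.9%, 12.9% and 52.7% of all genes.

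Because most members carried H3K4 and most CREB peaks lie at H3K4 genes, the comparison was repeated among genes that have H3K4 at an end. H3K4 was read at E18.5 only, so for E13.5 and E16.5 the mark comes from a later stage than CREB. For E16.5 the member share was then 47.9% (34 of 71, 36.7 to 59.3), against 27% of all such genes. For E18.5 it was 39.4% (28 of 71, 28.9 to 51.1), against 23.4%. At E13.5 the members stood at 12.7% (9 of 71, 6.81 to 22.4) and all H3K4 genes at 7.2%, a value inside the members' interval. Among H3K4 genes the ratio was 1.76, 1.78 and 1.69 at the 3 stages. CREB at all 3 stages was held by the same 9 members (12.7%) and by 7.01% of all H3K4 genes, CREB at E16.5 and E18.5 only by 18 members (25.4%) and 13.3%, and CREB at any stage by 35 members (49.3%) and 30.1%. The excess of the members was therefore smaller against genes with H3K4, and at E13.5 it was not resolved from counting error.

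By stage, 9 members had CREB at all 3 stages (11.4%, against 3.83% of all genes) and 20 at E16.5 and E18.5 only (25.3%, 17 to 35.9, against 7.29%). A further 7 had CREB at E16.5 only (8.86%, against 3.79% of all genes) and 1 at E18.5 only (1.27%, against 1.69%). None had it at E13.5 only, a pattern held by 1 gene of the whole annotation. Each member with a peak in the short E13.5 list thus also had one in both longer lists, and 42 members had no CREB peak at an end at any stage. The E16.5 peaks are the widest and its list the longest, and with every peak set to 150 bp, 35 members in place of 36 had CREB at E16.5 (14.6% of all genes in place of 14.9%). Among the first 862 peaks of the longer lists, CREB lay at 14 members at E16.5 (17.7%, against 4.36% of all genes) and 6 at E18.5 (7.59%, against 4.29%).

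**Figure D2:**
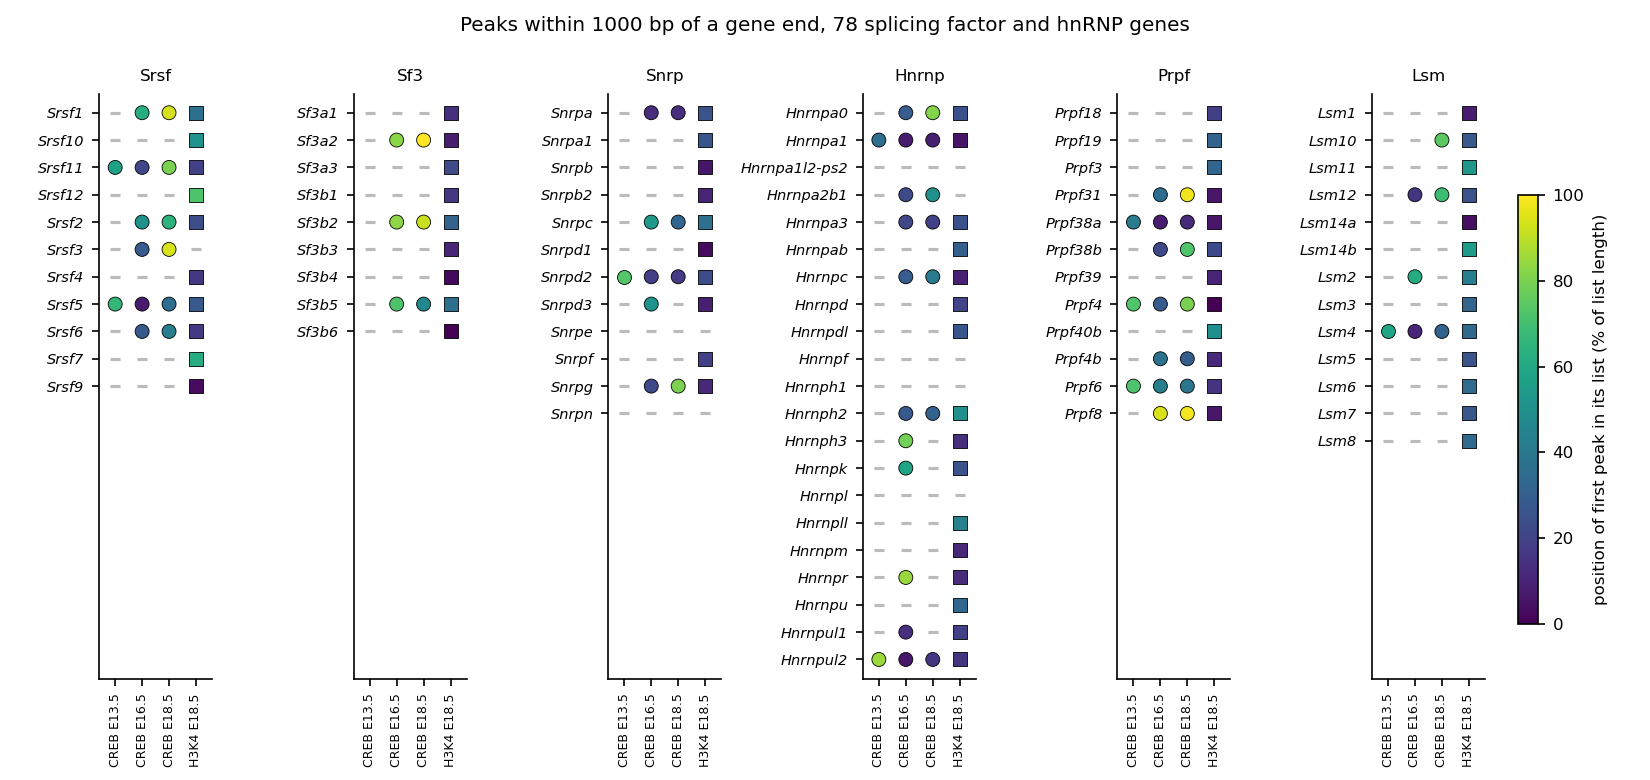
Peaks at the ends of 78 of the 79 members, by symbol family, in the 3 CREB lists (circles) and the H3K4 list of E18.5 (squares); the colour gives the place of the gene's first peak in its list as a percent of the list's length, and a dash means no peak. Circles in all 3 CREB columns mark 9 members, and 70 of the members drawn have a square.

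Among the SR protein genes, Srsf5 and Srsf11 had CREB at all 3 stages and Srsf1, Srsf2, Srsf3 and Srsf6 at the later 2. That is 2 of 11 Srsf genes at E13.5 and 6 of 11 at E16.5 and at E18.5, while Srsf4, Srsf7, Srsf9, Srsf10 and Srsf12 had none. The Srsf shares were 18.2% (5.14 to 47.7), then 54.5% at both later stages (28 to 78.7), against 3.94%, 14.9% and 12.9% of all genes. Of genes with H3K4, 7.2%, 27% and 23.4% had CREB, the first of these inside the Srsf interval. At Srsf5, an SR protein that promotes exon inclusion, the E13.5 peak (chr12:80945381-80945530) was centred 43.5 bp upstream of the annotated start. It was number 571 in its list, the E16.5 peak number 256 and the first E18.5 peak number 1053; no source explains the order within a list, so a number locates a peak and gives no strength. The E16.5 midpoint lay 254.5 bp downstream of the start, and at E18.5 the locus was covered by 2 separate peaks, 71.5 bp upstream and 555.5 bp downstream. The start region of Srsf5 printed above carries 2 half-sites, beginning 16 bases before and 35 bases after the start, and the first lies inside the peak at each stage.

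Srsf11, a less typical SR protein, had closely placed midpoints, 45.5, 82.5 and 62.5 bp upstream of the start, in stage order. Both half-sites of its printed region, at -82 and 6, lay inside all 3 peaks. The same peaks reach the gene end of Lrrc40, so they cannot be assigned to Srsf11 alone. Its peaks were number 491, 756 and 2362.

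Srsf3, which encodes a small SR protein that also acts in mRNA export, is one of 2 members with CREB and no H3K4 peak at an end. Its CREB midpoints lay 88.5 bp (E16.5, number 1004) and 108.5 bp (E18.5, number 2783) upstream of the start. The nearest H3K4 midpoints were 1259 and 1279 bp away, inside the gene and beyond the window. Srsf6 had peaks 151.5 and 160.5 bp upstream at E16.5 and E18.5 (numbers 980 and 1252), and Srsf2, an SR protein of the nuclear speckles, 302.5 and 281.5 bp upstream (1787 and 1898), where the wider E16.5 peak also reached Mfsd11. Srsf1, a founding SR protein, lies just at the edge of the window by gene end: its midpoints were 922.5 and 1033.5 bp inside the gene. They were 48.5 and 159.5 bp downstream of an annotated start, so the distance depends on which start is taken.

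The Snrp family, with genes for Sm, U1 and U2 proteins, had CREB at 1, 5 and 4 of 12 genes over the 3 stages. The shares were 8.33% (1.49 to 35.4), 41.7% (19.3 to 68) and 33.3% (13.8 to 60.9). Of these intervals the first holds the 3.94% of all genes, and the later ones lie above 14.9% and 12.9%. All 3 intervals hold the 7.2%, 27% and 23.4% of genes with H3K4. Snrpd2, a subunit of the Sm ring, had CREB at all 3 stages (numbers 630, 645 and 511). Its midpoints lay 408.5, 298.5 and 455.5 bp upstream of the annotated start in an end region shared with Qpctl. Snrpg, another Sm subunit, had CREB at E16.5 (25.5 bp upstream, number 772) and E18.5 (164.5 bp upstream, number 2378), and Snrpd3 at E16.5 only (656.5 bp upstream, number 1822, shared with Gucd1). The remaining genes of the Sm ring, Snrpb, Snrpd1, Snrpe and Snrpf, had no CREB peak at an end, and neither had Snrpn, for a neuronal Sm protein.

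Both members for proteins specific to the U1 snRNP, which reads the 5′ splice site, had CREB at E16.5 and E18.5. Snrpa, for the A protein of U1, had midpoints 98.5 bp upstream (number 444) and 11.5 bp downstream of its start (number 382), and both peaks also reach BC024978. Snrpc, for its C protein, had them 46.5 and 64.5 bp upstream (numbers 1895 and 959). Snrpa1 and Snrpb2, for proteins of the U2 snRNP, had H3K4 at an end (2 peaks and 1 peak) and no CREB peak. These role groups were formed after the values were seen and hold few genes.

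The full CRE of Snrpa begins 113 bases before the start and that of Snrpg 49 before it. Both lay inside the E16.5 peak, their TGACG 12.5 and 21.5 bp from its midpoint, and outside the narrower E18.5 peak, whose midpoints were 122.5 and 117.5 bp away. No other member had a full CRE at its outermost annotated start, while Lsm2 has one 34 bases before another annotated start, inside its E16.5 peak. The E18.5 peaks of these genes are therefore centred beside the palindrome, not on it.

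The SF3 genes, for the U2-bound complexes that hold the branch site, had CREB at 0, 3 and 3 of 9 genes, all with H3K4. The 33.3% at each later stage has an interval (12.1 to 64.6) that holds the 14.9% and 12.9% of all genes. Sf3a2 had midpoints 263.5 and 242.5 bp upstream at E16.5 and E18.5 (numbers 2913 and 2951), in a region shared with Plekhj1. Sf3b2 had them 99.5 and 71.5 bp upstream (2934 and 2707). Sf3b5, a small subunit whose gene is short enough for both of its ends to fall in the window, had them 25.5 and 52.5 bp from a gene end (2540 and 1385). These SF3 peaks stood in the last part of the E16.5 list, and Sf3b1, which contacts the branch site and is often mutated in human blood cancers, had none.

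Of the 13 Prpf genes, 3, 8 and 7 had CREB in stage order. Their shares were 23.1% (8.18 to 50.3), 61.5% (35.5 to 82.3) and 53.8% (29.1 to 76.8), against 3.94%, 14.9% and 12.9% of all genes. Of genes with H3K4, 7.2%, 27% and 23.4% had CREB. The Prpf genes with CREB include 4 of the 5 grouped here as proteins of the U4/U6.U5 tri-snRNP, a grouping made after the values were seen. Prpf4, Prpf6, Prpf8 and Prpf31 had CREB at E16.5 and E18.5, and Prpf3 had none. Tri-snRNP genes outside the 6 families, given below, had it at 3 of 8 and 1 of 8. Prpf6, which bridges the U5 and U4/U6 particles, had midpoints 31.5 and 61.5 bp upstream of its start at E13.5 and E18.5, and one close to the start at E16.5 (numbers 621, 1513 and 1147). Prpf4, the partner of Prpf3 on U4/U6, had them 28.5 bp upstream, 42.5 bp downstream and 55.5 bp downstream (623, 1006 and 2367), and its single half-site, 3 bases after the start, lay inside all 3 peaks. The Prpf4 peaks also cover an end of Cdc26, a subunit of the anaphase-promoting complex. All midpoints of Prpf4 and Prpf6 thus fell within 61.5 bp of the start.

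Prpf38a, needed for activation of the assembled spliceosome, had peaks at all 3 stages in the first part of each longer list (numbers 356, 276 and 357). The E13.5 midpoint lay 14.5 bp downstream of the start and the later ones both 101.5 bp downstream. Its half-site, 15 bases before the start, lay inside the E13.5 and E16.5 peaks and outside the E18.5 peak (chr4:108579155-108579314). Its paralogue Prpf38b had CREB at E16.5 and E18.5 (numbers 770 and 2141), 36.5 bp downstream and 80.5 bp upstream.

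Prpf8, the scaffold of the catalytic centre, had CREB at E16.5 and E18.5, 6.5 and 63.5 bp upstream, late in both lists (numbers 3327 and 2909), and is named after its values were seen. Prpf31, in which mutations cause retinitis pigmentosa in humans, had peaks 59.5 bp upstream and 22.5 bp downstream (1245 and 2892), shared with Tfpt. Prpf4b, a kinase, had 1 peak at E16.5 (603.5 bp upstream, number 1323) and 2 at E18.5 (129.5 and 1197.5 bp upstream, numbers 875 and 1538).

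The Lsm genes had the lowest CREB shares of the 6 families at E16.5 and E18.5: all 13 had H3K4, and 1, 3 and 3 had CREB in stage order. Their shares were 7.69% (1.37 to 33.3), then 23.1% at both later stages (8.18 to 50.3). These intervals hold the 3.94%, 14.9% and 12.9% of all genes, so no Lsm excess was resolved. Lsm4, of the ring that holds the end of U6 RNA, had it at all 3 stages (numbers 504, 375 and 929), with midpoints 275.5, 141.5 and 107.5 bp from a gene end. Lsm2 of the same ring had it at E16.5 only (70.5 bp downstream of the start, number 2157), and Lsm3, Lsm5, Lsm6, Lsm7 and Lsm8 had none. Lsm10, of the U7 snRNP that processes histone mRNA, was the only member with CREB at E18.5 alone (29.5 bp downstream of a start, number 2217). Lsm12 lay near the edge of the window, 925.5 and 848.5 bp from a gene end at E16.5 and E18.5 (numbers 550 and 2023). With 13 and 11 genes, the Lsm and Srsf shares at E18.5 (3 of 13 and 6 of 11) have Wilson intervals that overlap (8.18 to 50.3 and 28 to 78.7), although each share (23.1% and 54.5%) lies outside the other's interval; the difference was not tested.

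Among the hnRNP genes, 2, 11 and 7 of 21 had CREB in stage order. The shares were 9.52% (2.65 to 28.9), 52.4% (32.4 to 71.7) and 33.3% (17.2 to 54.6), against 3.94%, 14.9% and 12.9% of all genes. The E13.5 interval holds the 3.94%, so no hnRNP excess was resolved at that stage. Of genes with H3K4, 7.2%, 27% and 23.4% had CREB, and the E13.5 and E18.5 intervals hold their values. Hnrnpa1, a broad repressor of splice sites, had it at all 3 stages at early numbers (309, 249 and 255), with midpoints 235.5, 292.5 and 192.5 bp upstream of the start. A second E18.5 peak (number 1020) lay 886.5 bp upstream, and Cbx5, for the heterochromatin protein HP1 alpha, shares these peaks. Hnrnpa2b1 shares its peaks with Cbx3, for HP1 gamma, in the same arrangement. Its CREB midpoints lay 69.5 and 141.5 bp upstream at E16.5 and E18.5 (numbers 792 and 1477), and it had no H3K4 peak at an end, the nearest H3K4 midpoints being 1541 and 1613 bp away. Hnrnpa3 had CREB 271.5 and 155.5 bp upstream (numbers 745 and 566) and Hnrnpa0 302.5 bp upstream at E16.5 and close to the start at E18.5 (1025 and 2407). Of the A and B type genes this leaves Hnrnpab, with H3K4 and no CREB.

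Hnrnpul2, of the scaffold-type U group, had 2 peaks at E13.5 (chr19:8819343-8819492 and chr19:8819749-8819898, numbers 735 and 736), 1 at E16.5 (number 202) and 2 at E18.5 (457 and 490). The single 630 bp E16.5 peak, chr19:8819313-8819942, covers the ground of both narrow E13.5 peaks. The E13.5 and E18.5 lists thus hold 2 peaks each where the E16.5 list has 1, and all lie in an end region shared with Ttc9c. Whether the paired peaks are separate binding sites was not tested. Hnrnph2, on the X chromosome, had midpoints 125.5 bp upstream at both later stages (numbers 972 and 923) beside Gla. Hnrnpc, a binder of uridine tracts, had them 216.5 and 239.5 bp upstream (1026 and 1205), beside Rpgrip1.

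The hnRNP genes held 4 of the 7 members with CREB at E16.5 only. Hnrnph3 (310.5 bp upstream, number 2773, shared with Pbld2) and Hnrnpr (177.5 bp upstream, number 2985) were late in the list. Hnrnpk, a binder of cytidine-rich RNA, had its peak at number 2054, 334.5 bp upstream of an annotated start and 891.5 bp inside the longest gene model, within reach of Rmi1. Hnrnpul1 met the window by its edge alone: its E16.5 midpoint lay 1157.5 bp from the gene end (number 479), and an E18.5 peak at 1189.5 bp (number 817) missed it. The E18.5 peak (chr7:25754999-25755158) lies wholly inside the E16.5 one (chr7:25754796-25755425).

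**Figure D3:**
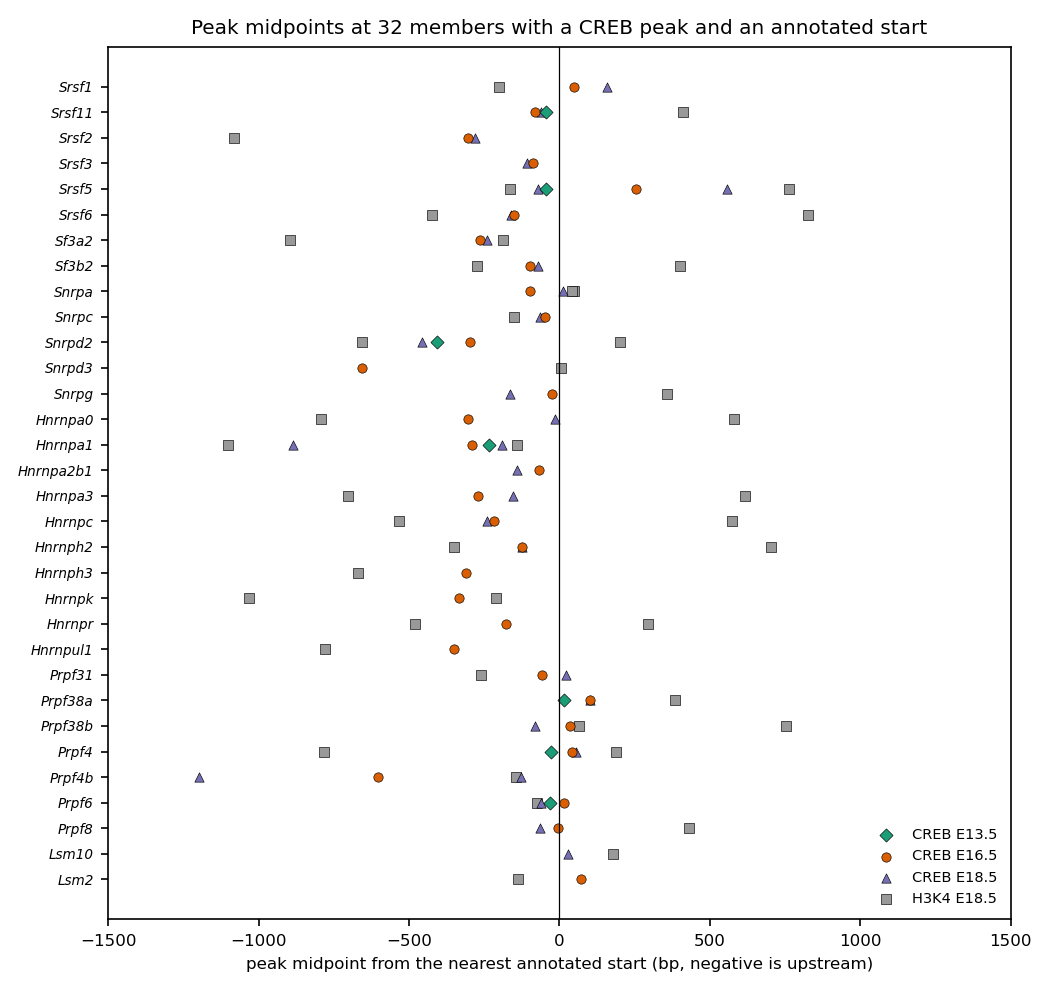
Distance in bp from the nearest annotated start to each peak midpoint (horizontal axis, negative upstream) at the 32 members with a CREB peak at an end and a start in the RefSeq promoter table; diamonds, circles and triangles are the CREB lists in stage order, squares H3K4, and 2 H3K4 midpoints at the other end of their genes lie beyond the axis. Most CREB midpoints lie upstream of the start, and most lie within 200 bp of it.

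CREB midpoints at members lay close to the annotated start. Where the promoter table gives the strand, the gene's first peak was at the start end in 7 of 7, 31 of 31 and 26 of 26 members in stage order, against 96.4%, 94.7% and 95.2% of all genes. The median distance to the start was 43.5, 126 and 105 bp at members and 134, 134 and 126 bp at all genes. Centred within 200 bp of the start were 5 of 7, 18 of 31 and 22 of 26 member peaks in stage order (71.4%, 58.1% and 84.6%), against 70.5%, 65.3% and 71.9% of those of all genes. With so few member peaks no direction is read from these shares. Midpoints lay upstream of the start in 77.4% and 76.9% of members at E16.5 and E18.5, against 71.9% and 78% of all genes.

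CREB and H3K4 midpoints were about as far apart at members as at all genes. The E18.5 CREB peak overlapped an H3K4 peak in 12 of 30 members (40%, all genes 34.8%), while an H3K4 midpoint lay within 1000 bp in 28 of 30 (93.3%, all genes 94.2%). The median distance between midpoints was 246 bp at members and 264 bp at all genes at E18.5. H3K4 peaks on both sides of the start were found at 14 of 32 members with CREB (43.8%), of which Hnrnpa3, Hnrnpc and Prpf4 are examples chosen from the plot of midpoints by distance, and at 30.1% of all genes with CREB. Among members without CREB it was 11 of 36 (30.6%), against 9.29% of all genes without CREB, which include many with no H3K4 at all. Of members with at least 1 H3K4 peak, 48.6% with CREB and 30.6% without had 2 or more; the values for all genes were 44.3% and 27%.

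Most places of the short E13.5 list were marked again at the later stages, at members as at all genes. All 10 E13.5 peaks at members overlapped an E16.5 peak (100%, 72.2 to 100; all genes 96.4%) and 9 of 10 an E18.5 peak (90%, all genes 94.2%). Of 36 E16.5 peaks, 29 overlapped one of E18.5 (80.6%, 65 to 90.2; all genes 74.1%), and of 34 E18.5 peaks, 30 overlapped one of E16.5 (88.2%, 73.4 to 95.3; all genes 83.6%). The values of all genes lie inside the members' intervals. The longer lists thus held most places of the shorter one and further places besides, with no difference resolved between members and all genes.

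Many members lie next to another gene. The windows of 42 of 79 members overlap that of another protein-coding gene (7048 of 21887 genes in all). A neighbour shared the peak at 5 of 9, 16 of 36 and 11 of 30 members with CREB (55.6%, 44.4% and 36.7%), against 44.4%, 38.8% and 38.7% of all genes with CREB. Among genes with no overlapping window, 3, 15 and 14 of 37 members (8.11%, 40.5% and 37.8%) had CREB in stage order, against 2.16%, 9.68% and 8.25% of all such genes. Relative to all genes the members' share was 3.75, 4.19 and 4.59 times as high there, no lower than with all gene pairs included.

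Some members without a peak at a gene end have one at a start inside the longest gene model, an alternative added after the data were seen. Hnrnph1, for a protein that binds runs of guanines, had CREB at all 3 stages (numbers 511, 576 and 141), centred 119.5, 43.5 and 54.5 bp upstream of an annotated start. The same peaks lie 2301.5, 2377.5 and 2366.5 bp from the gene end, so they fall outside the window. Hnrnpl, for a protein that binds CA repeats, also had CREB at all 3 stages (numbers 469, 379 and 295), 197.5, 210.5 and 207.5 bp upstream of a start and 2146.5, 2133.5 and 2136.5 bp from the gene end. Hnrnpf, related to Hnrnph1, had CREB at E16.5 and E18.5 (numbers 1296 and 237), 121.5 and 94.5 bp upstream of a start. Hnrnpu had an E16.5 peak (number 1775) 1278.5 bp downstream of its nearest start, of which the edge reaches the window.

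Counting such starts, and with Hnrnpul1 at E18.5, 11, 40 and 34 of the 79 members had CREB in stage order, 75 had H3K4 and 41 had CREB at some stage. Over the genes in the promoter table, the shares were 13.2%, 51.5% and 44.1% of 68 members and 4.51%, 17% and 14.8% of all 17492 genes. Of the 6 members with neither mark at a gene end, Hnrnph1, Hnrnpf and Hnrnpl thus carry both at an inner start, and Snrpn, an imprinted gene for a neuronal Sm protein, carries H3K4. Snrpe and Hnrnpa1l2-ps2, whose symbol is that of a pseudogene although the annotation lists it as protein-coding, have neither. The E16.5 list also has a CREB peak inside the body of Snrpn, away from its ends and annotated starts.

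The CRE half-site was counted in the promoter, here the 250 bases before and 50 after the outermost annotated start, on both strands, which 68 members have in the table. Of 35 members with a CREB peak within 1000 bp of that start at any stage, 25 hold it (71.4%, 54.9 to 83.7), and of 33 members without, 4 hold it (12.1%, 4.82 to 27.3). For all genes the shares were 56.4% with CREB and 16.9% without, and 23.8% of all 17492 promoters hold it. The 4 members with the half-site and no CREB peak at the start were Hnrnpm, Prpf39, Snrpa1 and Srsf10. A match is a run of letters and was not tested as a binding site.

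**Figure D4:**
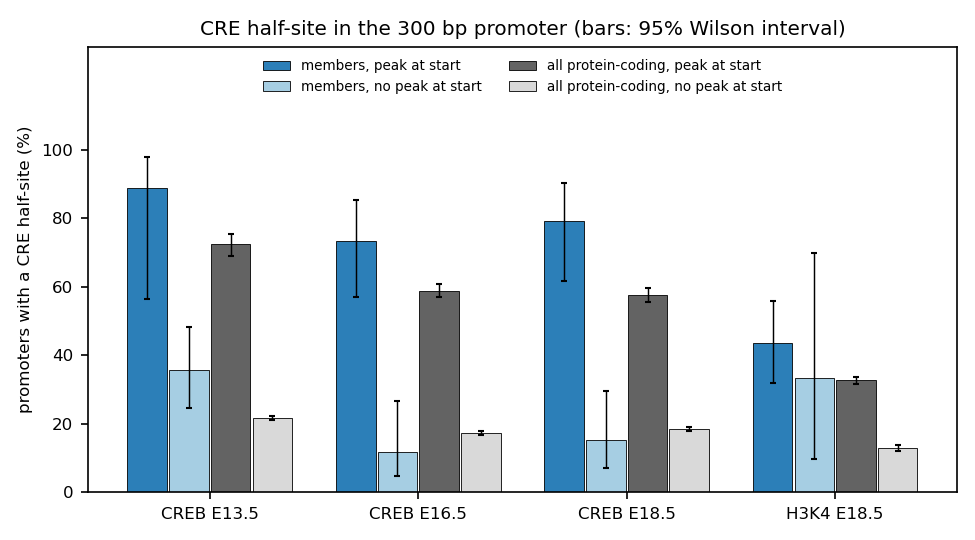
Share of promoters (percent, vertical axis) that hold the CRE half-site, for members and for all protein-coding genes with and without a peak within 1000 bp of the start, in each library; lines are 95% Wilson intervals. With a CREB peak the member shares were 88.9%, 73.5% and 79.3% in stage order, and without one 35.6%, 11.8% and 15.4%.

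By library, the half-site was in 8 of 9 members with an E13.5 peak (88.9%), 25 of 34 with an E16.5 peak (73.5%) and 23 of 29 with an E18.5 peak (79.3%). Members without the peak held it in 35.6%, 11.8% and 15.4%. For all genes the shares were 72.4%, 58.9% and 57.6% with the peak, and without it between 17.3% and 21.7%. For H3K4 the half-site was in 43.5% of members that have the peak (27 of 62) and in 33.3% of those that do not (2 of 6), against 32.7% and 13% of all genes with and without it. With 6 genes on one side the difference among members was not resolved. The half-site was inside the peak itself at 5 of 7, 23 of 30 and 11 of 26 members (71.4%, 76.7% and 42.3%) in stage order, against 52.2%, 59.9% and 41% of all genes whose promoter the peak touches. The 150 and 160 bp peaks cover less of a promoter than the 630 bp peaks: on average 133, 281 and 127 bases at members.

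The median GC content of the promoters was 59% in members with CREB and 60.3% in those without (61.3% and 54.7% for all genes). The 5 other orders of T, G and A before CG were found in 20% to 42.9% of members with CREB and 15.2% to 27.3% of members without, and in 8.71% to 19.9% of all promoters. The half-site share of members with CREB, 71.4%, lay above the range of the other orders, as did the 56.4% of all genes with CREB (14.7% to 29.3%). Without CREB, the 12.1% of members lay below the 15.2% to 27.3% of the other orders. It stands on 4 of 33 promoters, and its interval (4.82 to 27.3) overlaps that range, so no difference was resolved. The 16.9% of all genes without CREB lay inside the range of 7.43% to 17.9%. With members split by a peak at a gene end instead, the share without CREB was 16.7%, inside a range of 13.9% to 27.8%. The full CRE was in 2 of 35 members with CREB (5.71%) and 0 of 33 without (upper bound 10.4%), against 9.96% and 0.713% of all genes and 2.33% of all promoters. CCAAT was in 65.7% of members with CREB and 33.3% without (39.2% of all promoters), GGGCGG in 71.4% and 66.7% (46.3%), and CCGGAAG in 22.9% and 36.4% (11.9%). All genes with CREB held these in 50%, 71.4% and 21.2%. Genes with H3K4 and no CREB at the start held them in 33.9%, 67.7% and 17.4%. The GGGCGG shares of members were thus near those of like genes.

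Splicing genes outside the 6 families were read from 9 lists of the wider pathway, and 125 of their 126 symbols were found. In stage order, 14 of these had CREB (11.2%, 6.79 to 17.9), then 51 (40.8%, 32.6 to 49.6), then 40 (32%, 24.5 to 40.6), and 111 had H3K4 (88.8%). The members' own 11.4%, 45.6%, 38% and 89.9% lie inside these intervals, so no difference between the families and the wider pathway was resolved. All 14 genes with CREB at E13.5 also had it at both later stages, as did 838 of the 862 protein-coding genes with CREB at E13.5.

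Of the genes for the exon junction complex, deposited on mRNA by splicing, 6 of 9 had CREB, all 6 at all 3 stages (3.83% of all genes). Magoh (numbers 246, 209 and 256) and Rbm8a (313, 208 and 552) encode its core heterodimer, Casc3 (847, 959 and 711) another core subunit, and Rnps1 (732, 274 and 393) an associated factor. Acin1 and Magohb are the remaining 2 with CREB, named after their values were seen. Eif4a3, Pnn and Sap18 of the same list had H3K4 and no CREB peak at an end, and were also named after their values were seen. In the branch-site list, Phf5a, an SF3B subunit outside the symbol rule (329, 103 and 82), and Sf1, the branch-point binding protein (147, 179 and 211), had CREB at all 3 stages.

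Of the Prp19 complex and step factors, 2, 9 and 7 of 18 genes had CREB, with Xab2 at numbers 7, 8 and 12 and Cwc15 at 594, 492 and 982. The spliceosomal helicases had 1, 3 and 3 of 9, with Dhx38 at all 3 stages (562, 196 and 183). Further tri-snRNP genes had 1, 3 and 1 of 8, with Cd2bp2 at all 3 stages (443, 383 and 587). At E18.5 that is 12.5%, near the 12.9% of all genes. SR-like proteins and SR kinases had 1, 11 and 7 of 19, with Tra2b, a partner of SR proteins, at numbers 299, 337 and 293. Other RNA-binding regulators had 1, 8 and 8 of 34, with Syncrip, a relative of hnRNP R, at 595, 1001 and 803. At E18.5 the shares were 38.9% (Prp19 complex), 33.3% (helicases), 36.8% (SR-like) and 23.5% (other regulators). All genes stood at 12.9% there and genes with H3K4 at 23.4%. At E13.5 and E16.5 all genes stood at 3.94% and 14.9%. No interval was taken for single lists, and the E13.5 counts of 1 or 2 genes resolve no excess.

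The minor spliceosome genes had CREB at 0, 3 and 1 of 7 and the SMN complex, which loads Sm rings onto RNA, at 0, 3 and 3 of 11. Of all genes 3.94%, 14.9% and 12.9% had CREB, so the counts of 0 at E13.5 and the 14.3% of minor spliceosome genes at E18.5 are near the general share. Genes with Snrnp symbols, added after the data were seen, had 1, 2 and 2 of 7. There Snrnp40, of U5, had CREB at all 3 stages (314, 264 and 278) and Snrnp70, the third U1-specific protein, at E16.5 and E18.5 (1532 and 950). Together with Snrpa and Snrpc, all 3 U1-specific genes had CREB at the later stages and none at E13.5.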

How the data were processed

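The CUT&RUN cells came from male mouse gonads, dissociated and passed through a 70 µm filter, per the labels, and the libraries were grouped by antibody and stage. Each of the 4 groups used here has 1 library; the labels of an IgG library disagree on its stage, and it was not analysed here. Reads were processed with Bowtie2 2.5.2, Trim Galore 0.6.10 and MACS2 on mm10, per the submitters' processing notes, in an order not stated. The deposited files hold peak coordinates (chromosome, start, end) with no score, count or strand, so no test was run and the depth is unknown. No source explains the order of peaks within a list. Peaks on unplaced scaffolds were left out, leaving 834, 3526 and 2947 CREB peaks and 21202 H3K4 peaks.

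Gene ends came from a RefSeq table of GRCm38.p6, and starts, strands and sequences from a RefSeq table of promoters, which held 68 of 79 members (among those not held were Hnrnpll, Hnrnpul2, Lsm1, Lsm12, Lsm4, Prpf18, Sf3b4, Sf3b5, Snrpb and Snrpd1). Peaks were joined by an overlap of at least 1 bp. Coordinates are 1-based, and distances run from peak midpoints. Shares carry 95% Wilson intervals. The members and lists were chosen with earlier results of these data known. Members were named when they had CREB at all 3 stages, at a single stage, or at E16.5 and E18.5 only (up to 3 a family, by list position). Members with no H3K4 at an end, CREB midpoints over 800 bp from an end, or none nearer than the window but within 2500 bp were named too, as were neighbours that share a peak and up to 4 genes a pathway list with CREB at all 3 stages. Hnrnpa0, Hnrnpc, Prpf8, Sf3b1, Prpf3, the genes without CREB and the role groups were named after their values were seen. The values of 1 member that the rule selects are left out of the text. Alternatives were windows of 500 and 2500 bp, midpoints in place of overlap, peaks of 150 bp, midpoints within 200 bp, the first 862 peaks of each CREB list, H3K4 genes only, genes with no overlapping window and the full CRE. Inner starts, the rearranged letters and peaks at a gene end for the motif count were added after seeing the data. Calculations used Python 3.11.15, numpy 2.4.6, pandas 2.3.3 and scipy 1.17.1, figures matplotlib 3.10.9, and the code was tested on simulated data.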

Additional observations from a re-analysis of the deposited data

How the results depend on the processing

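Member and general shares moved by less than 1.5 times with windows of 500 or 2500 bp, midpoints in place of overlap, and inner starts. Cut to their first 862 peaks, the CREB lists marked fewer genes. The members stood at 17.7% at E16.5, 7.59% at E18.5 and 5.06% at all 3 stages. All genes stood at 4.36%, 4.29% and 2.63%. The ratio of members to all genes was 4.07 at E16.5 and 1.77 at E18.5. No interval was taken for the cut lists. The E18.5 and all-stage shares stand on 6 and 4 members, so an excess there was not resolved. Among genes with H3K4, the general shares were 7.2%, 27%, 23.4% and 7.01% (all 3 stages); without overlapping windows they were 2.16%, 9.68%, 8.25% and 2.08%. With 150 bp peaks, 70% of member E13.5 peaks overlapped one of E16.5, and by midpoints within 200 bp 100% had a partner at E18.5. The full CRE in place of the half-site gave 5.71% of members with CREB and 0% without. What list order stands for is not known, and the cause of these changes was not tested. No paired analysis was possible because each group holds 1 library. With depth unknown, the lack of a peak does not show the lack of binding.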
